A study of Rattus norvegicus with 3 samples.

Results

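Myc over vector protein ratios were compared between the soluble fraction and the chromatin-enriched fraction of the same cell pair, entry by entry. An entry is a protein identifier of the searched database. Entries were taken when the identical identifier carried a usable protein ratio in both tables. Of 1053 entries in the whole series, 108 stood in both tables, and 95 of these had a usable ratio in each. These 95 were 17.5% of the 542 soluble entries with a ratio and 26.1% of the 364 chromatin entries with a ratio. Beyond the need for a usable ratio, the size of the ratios was not used to take entries.

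Rat1 is an established line of rat fibroblasts. Rat1_Myc cells, which carry Myc, and Rat1_vector cells, which carry the vector, were both deprived of serum for 12 h, and each fraction was a mixture of 2.5 mg of protein per label. Rat1_Myc protein carried the heavy and Rat1_vector protein the light form of the isotope-coded affinity tag (ICAT), a reagent that binds cysteine, so that each tagged peptide gives a ratio of Myc over vector. There was 1 mixture per fraction, with no swap of the labels. The remaining sample, of crude mitochondria (250 ug per label), gave a ratio for 16 of the 95 entries, and is used below for a few of these. What drives Myc in these cells, whether the Rat1_Myc line is a single clone, and whether both fractions came from the same cultures are not given in the sources used here. Each ± on a ratio is the authors' deposited SD within a single mixture. With no repeated mixture, no test across samples was possible and no difference below has a replicate check.

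Myc is a transcription factor that raises the expression of genes for ribosome production, translation and metabolism, and that makes fibroblasts prone to apoptosis when serum is withdrawn. The soluble fraction of a cell lysate holds mainly cytosolic proteins, whereas a chromatin-enriched pellet holds histones, nuclear RNA-binding proteins and material that sediments with nuclei, such as cytoskeleton and matrix. Chaperones, ribosomal proteins, actin and many RNA-binding proteins are found in both. A ratio within a fraction depends on how much of a protein the Myc and vector cells hold and on what share of it each lost to that fraction, and these cannot be told apart from ratios alone.

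The labels of the fractions were compared with marker proteins. The chromatin table held 76 lines of lamins, 28 lines of histone H3, 7 lines of fibrillarin and 5 lines of topoisomerase, against 0 lines of each in the soluble table. The nuclear RNA-binding hnRNP proteins, also taken as chromatin markers, stood in both. They had 92 lines from 9 entries in the chromatin and 33 lines from 6 entries in the soluble table. The soluble table held 152 lines of pyruvate kinase, 12 of lactate dehydrogenase, 12 of enolase and 2 of glyceraldehyde 3-phosphate dehydrogenase, whereas the chromatin table held 1 line of pyruvate kinase and 0 of the others. Nucleolin was listed in neither table. Of the fibroblast markers, SPARC (26 lines) and galectin-1 (48 lines) stood in the soluble table, and vimentin (38), fibronectin (36) and collagens (22) in the chromatin table. Prolyl 4-hydroxylase stood in both, with 5 soluble and 12 chromatin lines. Keratin, albumin, hemoglobin, transferrin and desmin were at 0 lines in both tables. The soluble table had 3608 peptide lines and the chromatin one had 2386, of which 1378 and 976 belonged to the 95 entries. The median ratio was 1.34 in the soluble and 1.24 in the chromatin table, so each log2 ratio was centred on the median of its own table. A positive difference below means that Myc over vector was higher in the soluble fraction.

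For 55 of the 95 entries the centred ratios of the fractions lay within 1.5-fold of each other. The median difference of soluble minus chromatin was -0.03 on the log2 scale, the middle range between the quartiles ran from -0.65 to 0.37, and the median size of the difference was 0.45, or 1.37-fold. An entry was said to differ when the centred ratios were at least 1.5-fold apart and more than 2 combined errors apart. By this rule 21 of the 95 entries differed, or 22.1%. The exact binomial 95% interval, 14.2% to 31.8%, covers counting error only. It takes the entries as independent, although all come from the same mixtures and share the centring. Myc over vector was higher in the soluble fraction for 9 of the 95 entries (9.47%) and higher in the chromatin fraction for 12 (12.6%). The split depended on the centring and on the error scale. With linear errors 21 entries differed, 6 higher in soluble and 15 higher in chromatin. With the ratios as deposited 20 entries differed, 12 higher in soluble and 8 higher in chromatin, so that the share higher in soluble was 60% against 42.9% after centring. With both tables centred on the 95 shared entries instead, 19 differed, 15 higher in soluble and 4 higher in chromatin, and 13 of the 21 remained. The 6 entries gained were all higher in soluble: poly(A)-binding protein 3, JW0079, L30, pyruvate kinase, S11 and AK053450_1. The first 3 of them were also gained with the ratios as deposited. RBBP7, prolyl 4-hydroxylase, NCAM1 and the mannose 6-phosphate receptor, all higher in the chromatin fraction and described below, no longer differed under either of these centrings. Ribosomal protein S2, RuvB-like 1, TCP-1 alpha and Sm D3, also higher in the chromatin fraction, no longer differed when the tables were centred on the shared entries. The entries that differed in either direction spanned -2.81 to 1.72.

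**Figure D1:**
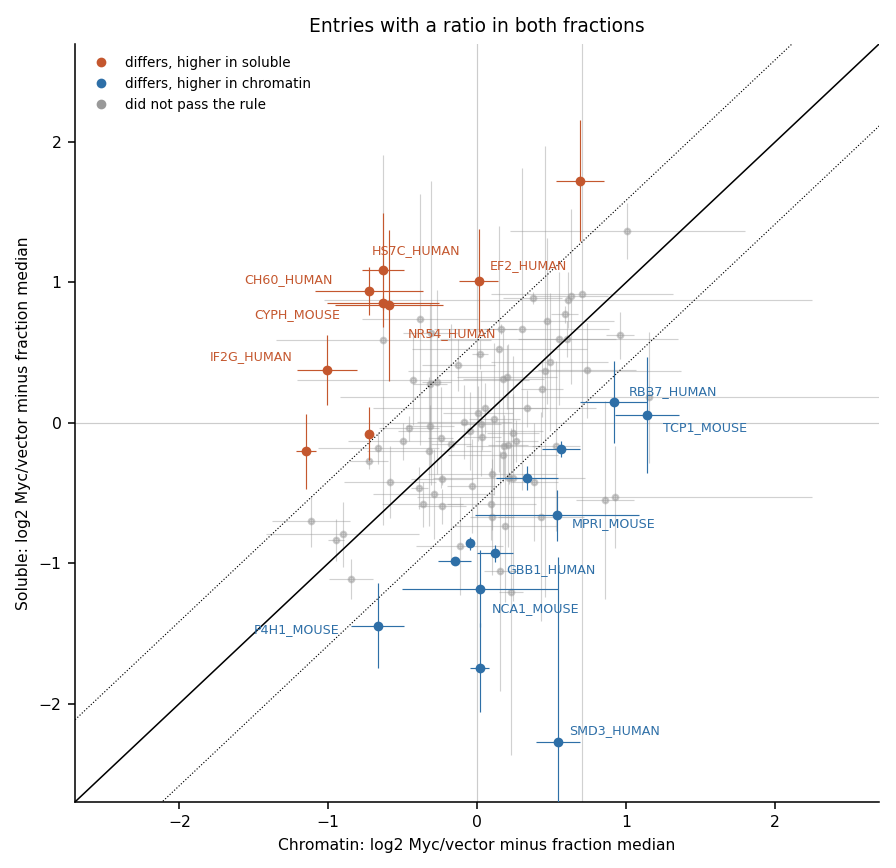
Centred log2 ratio of Myc over vector in the soluble fraction (vertical axis) and in the chromatin fraction (horizontal axis) for the 95 shared entries, with the deposited SD as error bars, some of which run past the frame. The solid line marks equal ratios and the dotted lines 1.5-fold; the 9 orange entries lie above the upper and the 12 blue entries below the lower dotted line.

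Set against the median of its own table, shared entries were counted as changed in the shares that follow. A ratio 1.5-fold and more than 2 errors from the median was found for 25 shared entries (26.3%) in the soluble table, where 29.9% of all entries met this rule. Among chromatin entries the rule was met by 18 shared ones (18.9%), where 22.5% of all entries did. Of the 21 entries that differed between the fractions, 8 had moved from the median in the soluble fraction alone, 5 in the chromatin fraction alone, 4 in both and 4 in neither. Proteins are called below by the reading of their entry name, which is given in brackets. Line counts given with an entry ratio take in all lines of the entry, also those whose own peptide ratio was coded. Counts given for a single peptide are of quantified lines.

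Of the 5 cytosolic chaperones 3 differed, 2 with the higher ratio in the soluble and 1 with the higher ratio in the chromatin fraction. The heat shock cognate Hsc70 (HS7C_HUMAN), which folds newly made proteins, had a ratio of 2.86 ± 0.81 in the soluble and 0.802 ± 0.078 in the chromatin fraction, a centred difference of 1.72 ± 0.43 (combined error). It was thus above the median in the soluble and below the median in the chromatin fraction. Cyclophilin A (CYPH_MOUSE), a prolyl isomerase, had 2.43 ± 0.083 in the soluble and 0.801 ± 0.208 in the chromatin fraction, a difference of 1.49 ± 0.38. Its ratio in the crude mitochondrial fraction was 2.04 ± 0.211. The alpha subunit of the chaperonin TCP-1 (TCP1_MOUSE), part of the ring that folds actin and tubulin, went the other way with 1.40 ± 0.4 in the soluble and 2.74 ± 0.411 in the chromatin fraction, a difference of -1.09 ± 0.47. The eta and theta subunits of the same ring (TCPH_HUMAN and TCPQ_HUMAN) had differences of 0.12 ± 0.67 and 0.27 ± 1.65, within their errors. The chromatin ratio of each of these 3 subunits rested on 1 peptide.

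The tables also held entries of the same proteins under another species, which are not among the 95 because they stood in a single table of the pair. Mouse Hsc70 (HS7C_MOUSE) had a soluble ratio of 1.17 ± 0.263, below the soluble ratio of the human entry. It was also below the soluble median of 1.34. Joining the human and mouse entries by name left the difference of Hsc70 at 1.08. The joined soluble value was 0.44 ± 0.26 above the median on the log2 scale, under 1.5-fold. The mouse entry of the TCP-1 eta subunit (TCPH_MOUSE) had 2.115 ± 0.375 in the soluble fraction, against 1.17 ± 0.43 for the human entry. The joined difference of the eta subunit was 0.55 ± 0.51, within 2 errors. Joining by name also brought in ITAV, which is not among the 95 and differed at -0.60 ± 0.19. Human cyclophilin A (CYPH_HUMAN) had 4.26 ± 1.71 in the soluble fraction, above the mouse entry, and mouse Hsp60 (CH60_MOUSE) had 2.60 ± 0.179 there, close to the human entry described next.

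Of the 5 mitochondrial proteins 2 differed, both higher in the soluble fraction. Hsp60 (CH60_HUMAN), the chaperonin of the mitochondrial matrix, had 2.57 ± 0.308 in the soluble fraction from 83 lines and 0.750 ± 0.189 in the chromatin fraction from 18 lines, a difference of 1.67 ± 0.40. Like Hsc70 it lay above the median in the soluble and below the median in the chromatin fraction. Mitochondrial ribosomal protein L19 (RM19_MOUSE) had 1.27 ± 0.165 in the soluble and 0.749 ± 0.012 in the chromatin fraction, each from a single line. The multifunctional matrix protein p32 (MA32_MOUSE) was high in both, at 3.47 ± 0.481 in the soluble and 2.50 ± 1.37 in the chromatin fraction. Mitochondrial serine hydroxymethyltransferase (GLYM_HUMAN) was nearly the same in both, at 1.82 ± 0.618 and 1.74 ± 0.474. The ES1 homolog (ES1_HUMAN) had the lowest difference of the group, -1.21 ± 0.86, within 2 errors.

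Of 5 translation factors 2 differed, both higher in the soluble fraction. A difference above 0 was found for 4 of the 5, against 45 of all 95 entries, and their median was 0.54, against -0.03 for all 95. Elongation factor 2 (EF2_HUMAN), which moves the ribosome along the mRNA, had 2.71 ± 0.689 in the soluble fraction and 1.25 ± 0.111 in the chromatin fraction, a difference of 1.00 ± 0.39. The gamma subunit of initiation factor 2 (IF2G_HUMAN), which brings the initiator tRNA to the ribosome, had 1.74 ± 0.3 in the soluble and 0.617 ± 0.086 in the chromatin fraction, a difference of 1.38 ± 0.32. Poly(A)-binding protein 3 (PAB3_HUMAN) had a difference of 0.54 ± 0.31. Elongation factor 1-alpha (EF11_HUMAN), with 82 soluble and 43 chromatin lines, had 1.67 ± 0.399 and 1.40 ± 0.264, a difference of 0.13 ± 0.44. Elongation factor 1-gamma (EF1G_HUMAN) was at -0.01 ± 0.56.

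**Figure D2:**
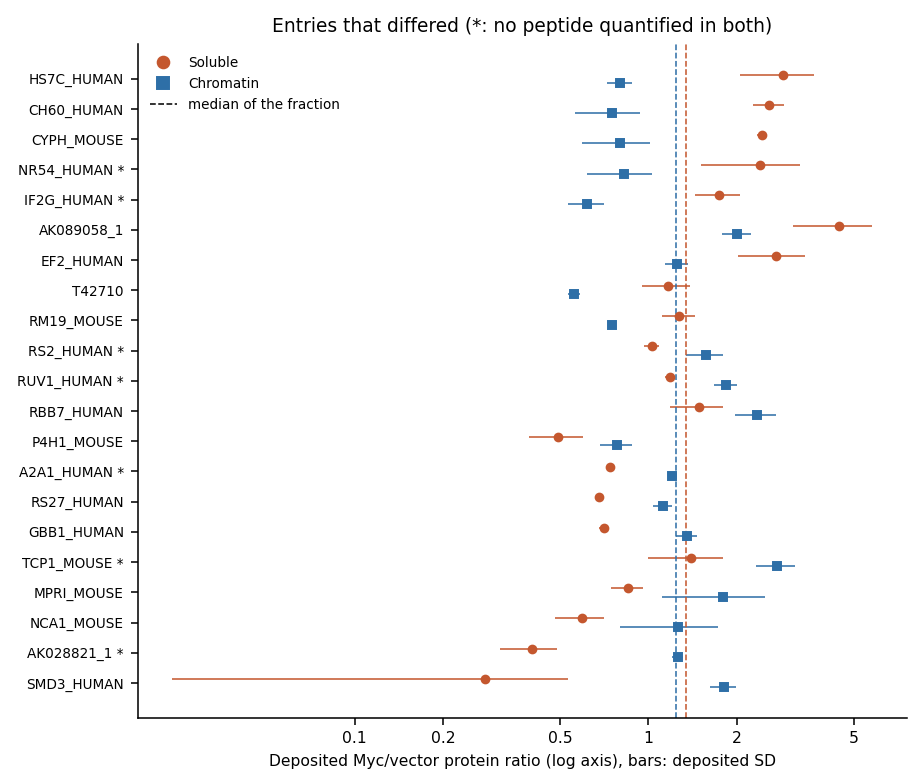
Deposited protein ratios of Myc over vector, on a log axis, for the 21 entries that differed, with the deposited SD; orange circles are the soluble and blue squares the chromatin fraction, and dashed lines mark the median of each table. The 9 upper entries have the higher centred ratio in soluble and the 12 lower ones in chromatin; for 7 entries, marked *, no identical peptide was quantified in both fractions.

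Of 13 cytosolic ribosomal proteins 2 differed, both with the higher ratio in the chromatin fraction, and the median of the 13 was -0.36. These calls depended on the centring. As deposited, L30 differed too, at 0.62 and higher in soluble. With the tables centred on the shared entries, L30 and S11 differed, both higher in soluble, and S2 no longer did. The median of the 13 was -0.25 as deposited and -0.19 with centring on the shared entries. Ribosomal protein S2 (RS2_HUMAN), of the small subunit, had 1.02 ± 0.060 in the soluble fraction from 23 lines. It had 1.56 ± 0.225 in the chromatin fraction from 3 lines, 2 of them quantified. Ribosomal protein S27 (RS27_HUMAN) had 0.681 ± 0.010 in the soluble and 1.12 ± 0.086 in the chromatin fraction, each from a single line of the same peptide. The lowest difference was that of the stalk protein P0 (RLA0_HUMAN), at 0.918 ± 0.449 in the soluble and 2.26 ± 0.305 in the chromatin fraction, -1.41 ± 0.73 and so within 2 errors. The highest was that of L30 (RL30_HUMAN), at 2.13 ± 0.051 in the soluble and 1.38 ± 0.105 in the chromatin fraction, 0.51 ± 0.11, over 2 errors but under 1.5-fold. The same held for S11 (RS11_HUMAN), at 1.11 ± 0.045 and 0.750 ± 0.067, a difference of 0.45 ± 0.14. L10 (RL10_HUMAN), with 58 soluble and 144 chromatin lines, had 2.22 ± 0.909 and 1.72 ± 0.536, a difference of 0.26 ± 0.74. L4, L12, L18a and L22 lay between -0.41 and -0.36, and L7a, SA and S6 between 0.09 and 0.37, all within 2 errors.

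Of 5 chromatin proteins 2 differed, both with the higher ratio in the chromatin fraction, and 0 did with the tables centred on the shared entries, where RBBP7 came to -0.60 and RuvB-like 1 to -0.57. The histone chaperone subunit RBBP7 (RBB7_HUMAN), shared by several histone-modifying complexes, had 1.49 ± 0.302 in the soluble and 2.34 ± 0.367 in the chromatin fraction, a difference of -0.77 ± 0.37. RuvB-like 1 (RUV1_HUMAN), an ATPase of chromatin-remodelling complexes, had 1.18 ± 0.046 in the soluble fraction from 1 line and 1.83 ± 0.165 in the chromatin fraction from 2 lines, a difference of -0.75 ± 0.14. RBBP4 (RBB4_HUMAN), the close relative of RBBP7, had 0.890 ± 0.077 in the soluble and 1.05 ± 0.117 in the chromatin fraction, a difference of -0.36 ± 0.20. The DNA-bending protein HMG1 (HMG1_HUMAN) was above both medians, at 2.51 ± 1.09 in the soluble and 1.92 ± 0.337 in the chromatin fraction. The corepressor TIF1-beta (TF1B_HUMAN) had the highest difference of the group, 0.56 ± 0.66.

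Of 12 proteins of RNA packaging, splicing and unwinding 1 differed in each direction. A difference below 0 was found for 9 of the 12 (7 under the other centrings), against 50 of all 95 entries, and their median was -0.25. The RNA-binding protein p54nrb (NR54_HUMAN), a paraspeckle component, had 2.40 ± 0.891 in the soluble and 0.823 ± 0.207 in the chromatin fraction, a difference of 1.43 ± 0.65. Its quantified chromatin lines came from a pair of peptides with medians of 1.38 and 1.06, both above the deposited chromatin ratio of the entry. The spliceosomal core protein Sm D3 (SMD3_HUMAN) had the lowest difference of the 95 entries, with 0.278 ± 0.254 in the soluble and 1.81 ± 0.185 in the chromatin fraction, -2.81 ± 1.33. Its soluble value rested on 3 quantified lines of 1 peptide, at 1.86, 1.86 and 0.176, of which the lowest carried the smallest deposited error. Without that line its soluble lines lay inside the range of its 8 chromatin lines, 1.38 to 2.25. The packaging proteins hnRNP H, F, U and R (ROH1, ROF, ROU and ROR) lay between -0.31 and 0.05, and hnRNP U (ROU_HUMAN), with 31 chromatin lines, had 2.03 ± 0.178 in the soluble and 1.89 ± 0.428 in the chromatin fraction. The helicases BAT1 (HE47_HUMAN, -1.43 ± 1.17) and DDX3 (DDX3_MOUSE, -0.47 ± 0.59; DDX3_HUMAN, -0.09 ± 1.85), PTB (PTB_MOUSE, -0.63 ± 0.88) and U2AF (U2AF_HUMAN, -0.34 ± 0.19) were within 2 errors. Poly(rC)-binding protein 1 (PCB1_HUMAN) was at 0.05 ± 0.77.

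Of 6 matrix and surface proteins 5 had the lower centred ratio in the soluble fraction, and 2 differed, both higher in the chromatin fraction. With the ratios as deposited, or centred on the shared entries, 0 of the 6 differed. The median ratio of the 6 was 0.791 in the soluble and 1.08 in the chromatin fraction, and the median difference was -0.51. The adhesion molecule NCAM1 (NCA1_MOUSE) had 0.593 ± 0.113 in the soluble and 1.26 ± 0.459 in the chromatin fraction, a difference of -1.20 ± 0.59. The human entry of NCAM1 (NCA1_HUMAN) had 1.33 ± 0.026 in the soluble fraction, more than the mouse entry. With both species joined by name the difference of NCAM1 came to -0.62 ± 0.54 and no longer passed the rule. The mannose 6-phosphate receptor (MPRI_MOUSE), which carries lysosomal enzymes, had 0.851 ± 0.107 in the soluble and 1.80 ± 0.686 in the chromatin fraction, a difference of -1.19 ± 0.58. The sodium pump alpha-1 chain (A1A1_HUMAN) had 0.732 ± 0.178 and 1.15 ± 0.232, a difference of -0.76 ± 0.46. Thrombospondin 1 (TSP1_HUMAN), a secreted matrix protein, was low in both, at 0.622 ± 0.061 and 0.690 ± 0.071. Integrin beta-1 (ITB1_MOUSE) had 0.944 ± 0.21 in the soluble and 1.01 ± 0.284 in the chromatin fraction, and the LDL receptor-related protein 1 (LRP1_HUMAN) had the highest difference, 0.29 ± 0.22.

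The 3 G proteins lay on the chromatin side, except RhoA when the tables were centred on the shared entries, and 1 differed. The G protein beta-1 subunit (GBB1_HUMAN) had 0.706 ± 0.030 in the soluble fraction from 1 line. It had 1.35 ± 0.113 in the chromatin fraction from 4 lines, 3 of them quantified, a difference of -1.05 ± 0.14. Its ratio in the crude mitochondrial fraction was 0.968 ± 0.283. Rap1b (RAPB_HUMAN), a small GTPase of adhesion, had 0.845 ± 0.243 and 1.33 ± 0.134, a difference of -0.77 ± 0.44. RhoA (RHOA_HUMAN), which controls actin stress fibres, had 1.25 ± 0.083 and 1.27 ± 0.114, a difference of -0.13 ± 0.16.

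Of 6 proteins of the endoplasmic reticulum 1 differed, and 0 did with the ratios as deposited or centred on the shared entries. The alpha-1 subunit of collagen prolyl 4-hydroxylase (P4H1_MOUSE), which modifies new collagen chains, lay below the median in both fractions, at 0.494 ± 0.103 in the soluble and 0.782 ± 0.097 in the chromatin fraction, a difference of -0.78 ± 0.35. Calreticulin (CRTC_HUMAN), a calcium-binding chaperone with 75 soluble and 4 chromatin lines, had 1.44 ± 0.134 and 1.57 ± 0.148. The membrane proteins VAPA (VAPA_HUMAN) and VAPB (VAPB_MOUSE) were at -0.61 ± 0.51 and -0.03 ± 0.40, ARMET (ARME_MOUSE) at 0.14 ± 0.37 and ribophorin I (RIB1_HUMAN), of the glycosylation machinery, at 0.38 ± 1.06.

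None of the 8 actin and myosin entries, 3 tubulins and 3 metabolic enzymes differed by the rule, although 4 actin or myosin entries, tubulin alpha-2 and the serine synthesis enzyme phosphoglycerate dehydrogenase were at least 1.5-fold apart. Beta actin (ACTB_HUMAN) was lowest among the actin group, at 1.00 ± 0.292 in the soluble and 1.62 ± 0.182 in the chromatin fraction, a difference of -0.80 ± 0.45. The myosin light chain (MLEN_HUMAN) was highest, at 2.09 ± 1.57 and 1.00 ± 0.128, a difference of 0.95 ± 1.10. The heavy chains of nonmuscle myosin lay on opposite sides, with 0.48 ± 0.42 for chain A (MYH9_HUMAN) and -0.37 ± 0.73 for chain B (MYHA_HUMAN). Smooth muscle actin (ACTA_HUMAN), ARP3 (ARP3_HUMAN), filamin A (ABP2_HUMAN) and capping protein beta (CAPB_HUMAN) were at 0.59 ± 0.59, 0.73 ± 0.84, -0.21 ± 0.32 and -0.09 ± 0.57. Tubulin alpha-2 (TBA2_HUMAN) was at -1.10 ± 0.80, whereas tubulins beta-3 (TBB3_MOUSE) and beta-2 (TBB2_HUMAN) were at 0.06 ± 0.30 and 0.13 ± 0.41. Pyruvate kinase (KPY1_HUMAN), which forms pyruvate at the end of glycolysis, had 1.89 ± 0.137 in the soluble fraction from 152 lines and 1.26 ± 0.046 in the chromatin fraction from 1 line, 0.47 ± 0.12 and so under 1.5-fold. PAICS (PUR6_HUMAN), of purine synthesis, was at -0.08 ± 0.16 and phosphoglycerate dehydrogenase (SERA_HUMAN) at -0.97 ± 2.12. The nucleic acid-binding protein CNBP (CNBP_HUMAN), which belongs to none of these groups, was at 1.12 ± 0.97.

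Of the 20 entries that were left unnamed, 4 differed. T42710 had 1.17 ± 0.215 in the soluble and 0.560 ± 0.026 in the chromatin fraction, and AK089058_1 had 4.44 ± 1.33 and 2.00 ± 0.223, differences of 0.95 ± 0.27 and 1.04 ± 0.46. AK028821_1 had 0.401 ± 0.088 in the soluble and 1.26 ± 0.056 in the chromatin fraction, a difference of -1.76 ± 0.32 from 2 lines and 1 line. A2A1_HUMAN had 0.741 ± 0.024 and 1.204 ± 0.021, each from a single line, and with 0.05 the smallest combined error of the 95. AK029017_1 had the highest difference of the unnamed entries, 1.22 with an error larger than itself. Of the others with small errors, S25111 (0.753 ± 0.078 in the soluble and 0.644 ± 0.024 in the chromatin fraction) was low in both, while T46344 (2.30 ± 0.097 and 1.87 ± 0.117) was high in both. JW0079 (2.49 ± 0.076 and 1.61 ± 0.22) was high in the soluble fraction, and its chromatin ratio was within 1.5-fold of the median. AK010259_1 was at -0.67 ± 0.39, with peptides at 0.77 and -0.72, and AJ312390_1 at 0.41 ± 0.32, with peptides at 0.60 and 0.19. The other 10 lay between -1.45 and 0.42, within 2 errors.

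**Figure D3:**
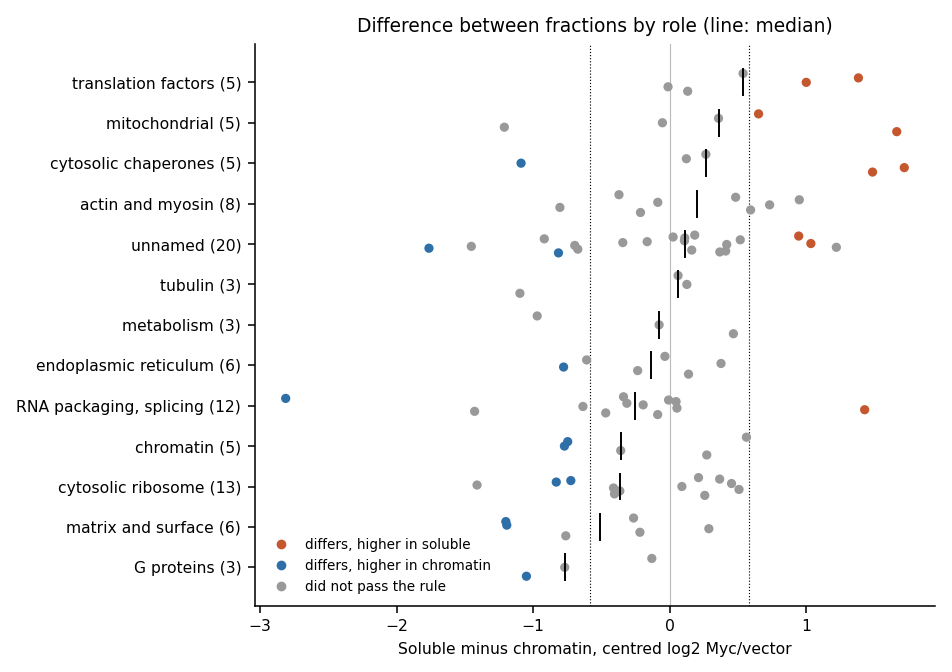
Difference of centred log2 ratios, soluble minus chromatin, for each shared entry by role group, with the number of entries in brackets, the median as a black line and 1.5-fold as dotted lines; CNBP is not drawn. Medians run from -0.77 for the G proteins to 0.54 for the translation factors, and the groups overlap.

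The groups hold few entries, and their sides depend on the centring. Every difference is higher by 0.11 with the ratios as deposited and by 0.17 with centring on the shared entries. With centring on the shared entries, the median of the endoplasmic reticulum proteins turned to 0.04 and that of the metabolic enzymes to 0.10, and as deposited that of the metabolic enzymes turned to 0.04. Under either, 7 rather than 9 of the 12 RNA-packaging and splicing proteins lay below 0, and their median came to -0.14 as deposited and -0.08 with centring on the shared entries. The medians of the other groups kept their sign under both.

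A protein ratio can rest on different peptides in each table, so the comparison was repeated on identical peptides. For 74 of the 95 entries at least 1 peptide was quantified in both fractions, 100 peptides in all. Of these peptides 29 differed by the same rule (29%), 17 higher in the soluble and 12 higher in the chromatin fraction. Among the 74 entries 14 differed by their deposited ratio (18.9%), and among the 21 entries with no such peptide 7 did (33.3%). The 7 were p54nrb, initiation factor 2 gamma, ribosomal protein S2, RuvB-like 1, TCP-1 alpha, A2A1_HUMAN and AK028821_1, for which no identical peptide had quantified lines in both fractions. For p54nrb the quantified soluble peptide had 32 residues, and the chromatin table held 1 coded line of a peptide of that length.

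Hsp60 had 4 peptides measured in both fractions, and each had the higher median in the soluble fraction. The 13-residue peptide had a median ratio of 3.34 over 31 soluble lines and 1.01 over 7 chromatin lines, and its lines did not overlap. The 14-residue peptide had 2.45 over soluble lines of 1.75 to 2.69, and 0.612 over 3 chromatin lines, of which 1, at 3.17, lay above every soluble line. The 16-residue peptide had 2.45 and 0.670, and the 17-residue peptide 1.72 and 1.48. After centring, the gap was 0.11 for the last of these, against 1.61 to 1.89 for the other 3. The 14-residue and 16-residue peptides passed the rule, whereas the 13-residue peptide, at 1.61 ± 0.81, was within 2 errors. Hsc70 had a 22-residue peptide at 3.13 over 7 soluble lines and 0.522 in 1 chromatin line, and an 8-residue peptide at 1.54 over 3 soluble lines and 0.812 in 1 chromatin line. The soluble lines of the 8-residue peptide ran from 0.699 to 2.62 and so included the chromatin value. Both medians lay on the side of the entry, and each chromatin value was a single line. The 10-residue peptide of cyclophilin A gave 2.42 to 2.58 over 3 soluble lines and 0.656 to 1.42 over 4 chromatin lines, without overlap, and 1.21 in its 1 line of the crude mitochondrial fraction.

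Elongation factor 2 had 6 peptides measured in both fractions, of which 5 had the higher centred median in the soluble fraction. The 12-residue and the 14-residue peptides had 2.91 and 3.64 in the soluble fraction, against 0.980 and 1.22 in the chromatin fraction, and both differed. The 18-residue and 20-residue peptides had 1.87 and 1.79 in the soluble and 1.10 and 1.32 in the chromatin fraction, and did not pass the rule. The 25-residue peptide went the other way with 1.00 and 1.88, each a single line. It passed the rule in that direction, at -1.02 ± 0.21. The 13-residue peptide gave the largest gap, 1.60 and 0.116, but its 3 chromatin lines all carried a question mark in the deposited cell, whose meaning the authors' legend does not give. Without marked lines the difference of elongation factor 2 over shared peptides was 0.58, just under 1.5-fold.

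On the chromatin side, the 2 shared peptides of RBBP7, of 29 and 31 residues, had 1.71 and 1.40 in the soluble fraction, against 2.42 and 2.89 in the chromatin fraction. Neither passed the rule alone, with differences of -0.62 ± 0.38 and -1.16 ± 0.74. A 15-residue peptide of RBBP7, quantified in the chromatin fraction alone, had 14 lines of 1.14 to 1.91, all with a question mark. The 17-residue peptide of NCAM1 had 0.513 to 0.655 over 4 soluble lines and 1.03 to 2.05 over 3 chromatin lines, without overlap, and 0.218 to 0.428 over 5 lines in the crude mitochondrial fraction. The 9-residue peptide of prolyl 4-hydroxylase had 0.429 in 1 soluble line and 0.581 to 0.846 over 3 chromatin lines. The 12-residue peptide of the G protein beta-1 subunit had 0.706 in 1 soluble line, against 1.31, 1.46 and a marked 0.413 in the chromatin fraction, and 0.661 to 0.786 in the crude mitochondrial fraction. The 10-residue peptide of T42710 was at 1.95 in 2 soluble lines and at 0.558 to 0.573 in 3 chromatin lines, while the other 5 soluble peptides of this entry had medians of 0.871 to 1.19.

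**Figure D4:**
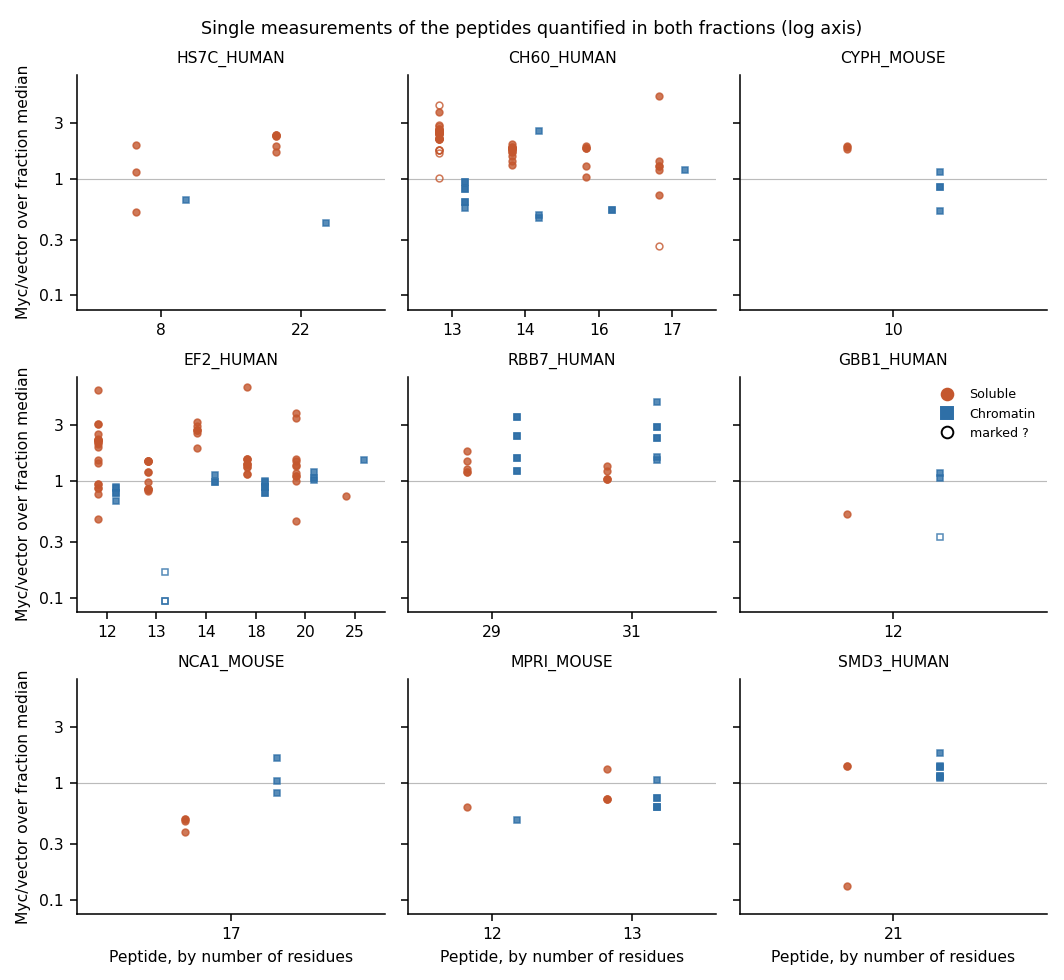
Peptide ratios of Myc over vector, divided by the median of the fraction and drawn on a log axis, for single lines of the peptides quantified in both fractions in 9 of the entries that differed; orange circles are soluble and blue squares chromatin lines, open symbols carry a question mark, and peptides are named by their number of residues. The circles lie above the squares for Hsc70, Hsp60 in 3 of 4 peptides and cyclophilin A, apart from single lines, and both overlap for the mannose 6-phosphate receptor and Sm D3.

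When each entry was remade from its shared peptides alone, 10 of the 14 entries kept their difference: Hsc70, Hsp60, cyclophilin A, elongation factor 2, T42710, mitochondrial L19, RBBP7, prolyl 4-hydroxylase, ribosomal protein S27 and the G protein beta-1 subunit. For mitochondrial L19 and S27 this holds by construction, since each ratio is a single line. For Hsc70, cyclophilin A and the G protein beta-1 subunit the same peptides stood behind both entry ratios, so no mismatch of peptides could show. NCAM1 stayed on its side at -1.11 but within 2 errors, and AK089058_1, whose soluble lines ran from 0.667 to 19.7, came to 0.09. Sm D3 and the mannose 6-phosphate receptor changed sign, to 0.14 and 0.23. The receptor's 13-residue peptide had a median of 0.989 in the soluble and 0.847 in the chromatin fraction, and its 12-residue peptide 0.830 and 0.599, while 2 of the 3 chromatin peptides without a soluble match were at 2.08 and 1.80. In all 19 of the 74 remade entries differed, 11 higher in soluble and 8 higher in chromatin.

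The 9 entries that differed only when remade were ARP3, smooth muscle actin, poly(A)-binding protein 3, hnRNP R and DDX3_HUMAN on the soluble side and filamin A, VAPA, PTB and AK045184_1 on the chromatin side. hnRNP R (ROR_HUMAN) had an 11-residue peptide at 1.12 in the soluble and 0.428 in the chromatin fraction. Filamin A (ABP2_HUMAN) had a 24-residue peptide at 0.899 in 1 soluble line and 1.51 over 5 chromatin lines. The 2 shared peptides of DDX3_HUMAN pointed in opposite directions: the 23-residue peptide had 3.17 in the soluble and 0.378 in the chromatin fraction, and the 24-residue peptide had 0.657 and 1.81. The deposited entry ratios of DDX3_HUMAN were 1.73 ± 1.93 in the soluble and 1.70 ± 1.08 in the chromatin fraction.

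**Figure D5:**
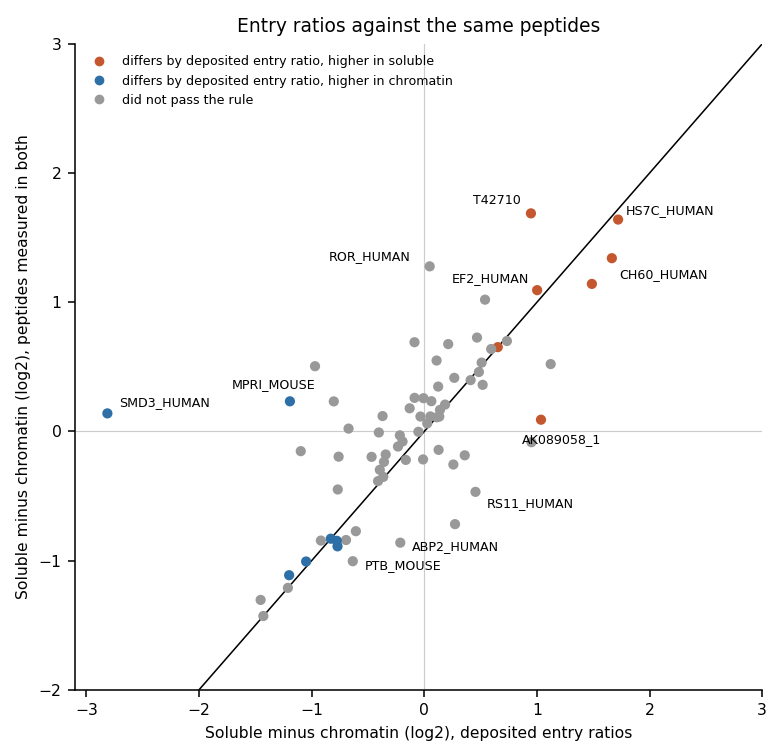
Difference of centred log2 ratios, soluble minus chromatin, from the deposited entry ratios (horizontal axis) and from the peptides quantified in both fractions (vertical axis) for the 74 entries that have such a peptide; the line marks equal values. Of the 14 coloured entries 10 differed on both axes, whereas Sm D3 (SMD3_HUMAN) and the mannose 6-phosphate receptor (MPRI_MOUSE) changed sign.

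Peptides of the same entry often disagreed. Of the 18 entries with at least 2 shared peptides, 7 had every peptide on the same side of 0 and 11 had peptides on both sides, and the median range of the peptide differences within an entry was 1.08 on the log2 scale. Beta actin showed this, with 3 shared peptides at 0.12, 0.93 and -0.35, as did myosin chain B (MYHA_HUMAN), with 0.91 and -0.67, and L4 (RL4_MOUSE), with -0.61, 0.28 and -0.82. In S11 (RS11_HUMAN) the 10-residue peptide, with 18 soluble lines and 1 chromatin line, was at -1.39 and the 11-residue peptide at 0.45, and the remade entry had the opposite sign to the deposited one. Other entries changed sign too, among them beta actin (-0.80 to 0.23), HMG1 (0.27 to -0.72) and phosphoglycerate dehydrogenase (-0.97 to 0.51). These examples were within 2 errors by both values. For 15 of the 74 remade entries the deposited and remade differences were over 1.5-fold apart.

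Repeated lines of a peptide varied within a fraction. For the 54 peptides with at least 2 quantified lines in each fraction, the median log2 range of the lines was 1.21 in the soluble and 0.98 in the chromatin fraction, a measure that grows with the number of lines. For 9 of the 54 (16.7%) the lines of both fractions did not overlap. Lines are repeated readings of a single mixture and not replicates of a condition.

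The deposited errors limited what could be seen. The median combined error was 0.42 on the log2 scale, so that 2 errors came to 1.79-fold, and for 24 of the 95 entries 2 errors came to 1.5-fold or less; 7 of these 24 differed. Another 19 entries were at least 1.5-fold apart but within 2 errors, and 4 were over 2 errors but less than 1.5-fold apart (JW0079, L30, pyruvate kinase and S11). A single peptide stood behind 40 soluble and 52 chromatin ratios, and behind both for 28 entries, of which 10 differed. Of the 31 entries with at least 2 peptides in both fractions 6 differed. The number of lines moved with the direction for part of the entries: of the 9 higher in soluble 6 had more soluble lines, and of the 12 higher in chromatin 7 had more chromatin lines, where 50 of the 95 had more soluble lines. The part of this in the result was not tested.

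Of the 21 entries, 8 kept their difference with the ratios as deposited, with centring on the shared entries, with errors of at least 10% or at least 20%, with 3 combined errors and with linear errors: Hsc70, Hsp60, cyclophilin A, initiation factor 2 gamma, T42710, ribosomal protein S27, the G protein beta-1 subunit and AK028821_1. Other settings removed some of these. S27 was lost at a probability of at least 0.9, since its lines had 0.705 in the soluble and 0.828 in the chromatin fraction. At 2-fold T42710 and S27 no longer differed. Only Hsc70 and Hsp60 among the 8 had at least 2 peptides in both fractions. Of these 8, Hsp60 and T42710, which also had peptides without a match, kept their difference on identical peptides. Hsc70, cyclophilin A, S27 and the G protein beta-1 subunit kept it too, but the same peptides stood behind both of their entry ratios. For them the comparison could not show a mismatch of peptides. Initiation factor 2 gamma and AK028821_1 had no identical peptide to compare.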

How the data were processed

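The deposited tables hold 1 line per ICAT peptide with its probability, its ratio and a text cell with the protein ratio, SD and number of peptides. Per the labels' protocols, the authors identified peptides with PeptideProphet and ProteinProphet and computed the ratios of Myc over vector with ASAPRatio; versions are not given in the sources used here. The authors' codes 0, 9999 and -1 mark ratios with no usable peak, and 13 entries coded in at least 1 table were left out. Centred log2 ratios, combined errors (SD over ratio, as the root of summed squares) and peptide medians were computed here with Python 3.11.15, numpy 2.4.6, pandas 2.3.3 and scipy 1.17.1; figures used matplotlib 3.10.9.

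Proteins were read from Swiss-Prot entry names by general knowledge, since the tables spell out none: 75 of 95 entries were named, 62 carried a human and 15 a mouse suffix, and 70 assigned gene symbols were found in the RefSeq table of the rat assembly GRCr8. Named in the text are the entries that differ, the extremes of each role group, the 10 with the smallest error, the 18 with at least 2 shared peptides (a tie at 2 kept more than 10) and, beyond the rule, the other members of each group for completeness. Members, groups and rules were chosen with earlier results of these data known. Peptide letters are not printed. Alternatives changed the centring, fold, error rule, peptide number, probability, joining of species and, chosen after the data were seen, the error scale, marked lines and shared peptides.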

Additional observations from a re-analysis of the deposited data

Results flagged for a closer look

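Hsc70 (HS7C_HUMAN) moved in opposite directions relative to the medians of the fractions, with a Myc over vector ratio of 2.86 in the soluble and 0.802 in the chromatin fraction, a centred difference of 1.72. Hsp60 (CH60_HUMAN) did so too, with 2.57 in the soluble and 0.750 in the chromatin fraction, a centred difference of 1.67. With the mouse entries joined by name, the centred soluble value was 0.44 ± 0.26 for Hsc70 and 0.95 ± 0.10 for Hsp60. That of Hsc70 was under 1.5-fold, so that joined Hsc70 no longer counted as moved in the soluble fraction. Each fraction is 1 mixture, so neither difference was tested. Without joining species, Hsc70 and Hsp60 were the 2 entries, of the 9 that had moved from the median in both fractions, whose directions were opposite.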

How the results depend on the processing

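The count of 21 differing entries became 13 at 2-fold, 35 at more than 1 and 12 at more than 3 combined errors, 40 by fold alone, 13 with errors of at least 20%, and 6 of the 31 entries with at least 2 peptides in both fractions; the 3-error, 2-fold and 20% settings removed entries and added none. The median difference of -0.03 became 0.080 as deposited, 0.14 centred on the shared entries and -0.19 with at least 2 peptides. The 29 differing peptides became 16 at 2-fold, 47 by fold alone and 15 with the spread of the lines as error. Remade from shared peptides, with or without marked lines, MPRI_MOUSE and SMD3_HUMAN reversed to 0.23 and 0.14. Other settings kept these counts within 1.5 times, but not always the same entries. With linear errors 16 of the 21 entries were kept and 5 were gained. Elongation factor 2, p54nrb, AK089058_1, the mannose 6-phosphate receptor and NCAM1 no longer differed with linear errors, nor at more than 3 combined errors. The cause was not tested where a setting does not show it by its construction. No paired analysis was possible because each fraction is 1 mixture, and no replicate could be left out. Depth in lines differed widely between entries, and a ratio from 1 line has no check.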

Other observations

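Of the 108 entries in both tables, 13 had a coded ratio in a single table and no difference. The code stood in the soluble table for 10 of them, among them RL23_HUMAN, at 1.11 ± 0.133 in the chromatin fraction, PP1A_HUMAN, at 1.44 ± 0.074, and NOC4_MOUSE, at 0.516 ± 0.508. It stood in the chromatin table for 3, C166_HUMAN, TCPD_HUMAN and AK034795_1, with soluble ratios of 2.23 ± 0.878, 1.68 ± 0.287 and 1.14 ± 0.16. Which code means which missing peak is not known, so no direction is given.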
